A study of Mus musculus with 4 samples.

Results

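This account covers 9 mouse genes, the eosinophil and Th2 cell chemokines Ccl11, Ccl24, Ccl17, Ccl22, Ccl1 and Ccl8 and the receptors Ccr3, Ccr4 and Ccr8 to which they bind. They were chosen by name, as the non-control probes whose gene name in the scanner files is one of the 9, and are 9 of 31044 genes and 10 of 39429 probes on the array. The study measured whole lung RNA on Agilent 1-colour arrays, which report the brightness of a 60-base probe for each transcript. There were 4 groups with 1 array each, hybridised with RNA pooled from 4 samples: wild type (Pla2g3+/+) control, Pla2g3-/- control, antigen-challenged wild type and antigen-challenged Pla2g3-/-. Pla2g3 encodes a secreted phospholipase A2. Sensitisation was by intraperitoneal injection of 10 µg ovalbumin with 1.3 mg alum in 0.2 ml saline on days 0 and 14, and challenge by breathing 1% ovalbumin aerosol for 30 min a day on days 26, 27 and 28, with lungs taken 48 h later. The same protocol is attached to every sample in the labels, so the treatment of the controls cannot be read from them, and strain, age, sex and the deleted part of Pla2g3 are likewise not given in the sources used here. The design asks how the level of each chemokine and receptor differed between challenged and control lung, and whether that differed between the genotypes. A pool gives no spread between mice, so no difference between single arrays has a p-value or a replicate check. The averaged fits below measure no spread between mice either.

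Chemokines are small secreted proteins that draw leukocytes along a concentration gradient by binding receptors on their surface. In allergic airway inflammation, Ccl11 and Ccl24 (eotaxins) bind Ccr3, the main chemokine receptor of eosinophils, and Ccl17 and Ccl22 bind Ccr4, which marks Th2 cells and other CD4+ T cells. Ccl1, and in the mouse Ccl8, bind Ccr8, found on subsets of Th2 and regulatory T cells. Interleukins 4 and 13, acting through the transcription factor Stat6, are textbook inducers of several of these ligands in epithelium, macrophages and dendritic cells.

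The probe sequences of Ccl24 and Ccr8 are shown for reference, and no result below was drawn from the bases of the probes. After challenge with the wild type label, Ccl24 differed by -1.34 log2 units in the scanner files and 3.13 in the authors' value table. Ccr8 is the only member with more than 1 probe. The Ccl24 probe lies at chr5:136046667-136046726 on the minus strand (mm9, as given in the scanner files). The Ccr8 probes lie at chr9:120003941-120004000 and chr9:120003293-120003352 on the plus strand, starting at positions 1072 and 424 of the transcript, and capitals mark the stop codon at the end of the former.
Ccl24 probe: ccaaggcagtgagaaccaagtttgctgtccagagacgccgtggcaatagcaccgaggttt
Ccr8 probe at transcript position 1072: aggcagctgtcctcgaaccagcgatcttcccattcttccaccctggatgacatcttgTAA
Ccr8 probe at transcript position 424: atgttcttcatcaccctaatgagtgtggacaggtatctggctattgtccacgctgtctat

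Every member has a probe of 60 bases with 1 spot per array. The other probes lie, on mm9, at chr11:81876072-81876131 (Ccl11, plus strand), chr8:97335770-97335829 (Ccl17, plus), chr8:97274709-97274768 (Ccl22, plus), chr11:81990168-81990227 (Ccl1, minus), chr11:81930108-81930167 (Ccl8, plus), chr9:123945225-123945284 (Ccr3, plus) and chr9:114399467-114399526 (Ccr4, minus). All were designed against messenger RNA transcripts, and exon and UTR positions on mm9 were not analysed here. Ccl17 and Ccl22 lie close together on chromosome 8, and Ccl11, Ccl8 and Ccl1 close together on chromosome 11.

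The promoters of Ccl17 and Ccl22, neighbouring ligands of Ccr4, are shown. Both genes were highest in the WT-labelled challenged column and lowest in the KO-labelled control column of the authors' value table. This was not particular to the pair, since Ccl8, Ccr4 and Ccr8 had the same highest and lowest columns. The sequences are the 250 bases before the start of each gene, from RefSeq on GRCm38.p6, chr8:94810203-94810452 for Ccl17 and chr8:94745434-94745683 for Ccl22, both on the plus strand. Capitals mark matches to the Stat spacings TTCNNNNGAA and TTCNNNGAA, the former known for Stat6, which read the same on both strands.
Ccl17: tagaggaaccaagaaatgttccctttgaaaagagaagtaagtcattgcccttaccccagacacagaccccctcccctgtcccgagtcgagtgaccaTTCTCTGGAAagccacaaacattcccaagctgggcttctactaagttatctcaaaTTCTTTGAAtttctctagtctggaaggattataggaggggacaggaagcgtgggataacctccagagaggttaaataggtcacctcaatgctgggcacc
Ccl22: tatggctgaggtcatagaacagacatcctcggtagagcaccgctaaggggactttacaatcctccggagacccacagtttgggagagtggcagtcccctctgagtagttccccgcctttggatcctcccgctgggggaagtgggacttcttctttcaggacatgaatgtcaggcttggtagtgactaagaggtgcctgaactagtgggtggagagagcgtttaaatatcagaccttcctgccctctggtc

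The Ccl17 promoter held TTCTCTGGAA at -154 to -145 and TTCTTTGAA at -99 to -91, and the Ccl22 promoter held neither. Among 32851 promoters of the same length, 5.85% held TTCNNNNGAA and 7.02% held TTCNNNGAA. The promoters of 7 members were in the reference used, which did not include Ccl11 and Ccl24, and Ccl17 was the only one of the 7 with either spacing. The NF-kB consensus, present in 3.9% of promoters, matched only in Ccr3 among the 7 (GGAAATTCCC at -179 to -170). A match describes these letters only, and no binding was measured.

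The series has 2 sources of values: the scanner files, and a value table deposited by the authors. The columns of the table correlated with the scanner files of the same names at r = 0.915 to 0.923 over probes, less than different arrays within a source (0.986 to 0.992 in the scanner files and 0.99 to 0.994 in the table), so the table is not a rescaled copy of the scanner values. Every comparison is therefore given for both, each scaled on its own. Levels are relative signals, linear values in which 1 is the 75th percentile of that array, and are compared only between arrays of the same probe. The percentage of spots above background was 79.2 to 81.9 in the scanner files and 79.8 to 82.1 in the table. Pla2g3 itself was higher on the arrays labelled Pla2g3-/- in both sources: its brighter probe read 0.128, 1.17, 0.151 and 2.26 in the scanner files and 0.0395, 0.872, 0.0411 and 1.04 in the table, in the order wild type control, knockout control, wild type challenged and knockout challenged, which is used throughout. A probe outside the deleted part checks nothing, and that part is not given, so arrays are called WT-labelled and KO-labelled. Of the lung markers, 10 to 11 of 11 alveolar and 8 of 8 endothelial genes were above background on every array of both sources. Endothelial sums were 4.22 to 5.85 in the scanner files and 108 to 118 in the table. Alveolar sums were 142 to 169 and 377 to 406, and smooth muscle sums 1.59 to 1.82 and 47.5 to 64.7, in the same order. Markers of ciliated and club cells of conducting airways went the other way, at 619 to 711 in the scanner files and 191 to 208 in the table. A difference in tissue make-up between the sources was not tested.

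In the table, all 9 members were above background in every column and all 9 were higher after challenge in both genotypes, by 0.24 to 3.13 log2 units for WT-labelled and by 0.56 to 5.17 for KO-labelled lung. On the scanner side, 7 of 9 members were above background on all 4 arrays. There, Ccl17 and Ccl1 were higher after challenge in both genotypes, Ccl11 by 2-fold or more in the KO-labelled pair only, and Ccl24 and Ccl8 had opposite directions in the 2 genotypes. The challenge differences of the 3 receptors there lay between -0.57 and 0.57.

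**Figure D1:**
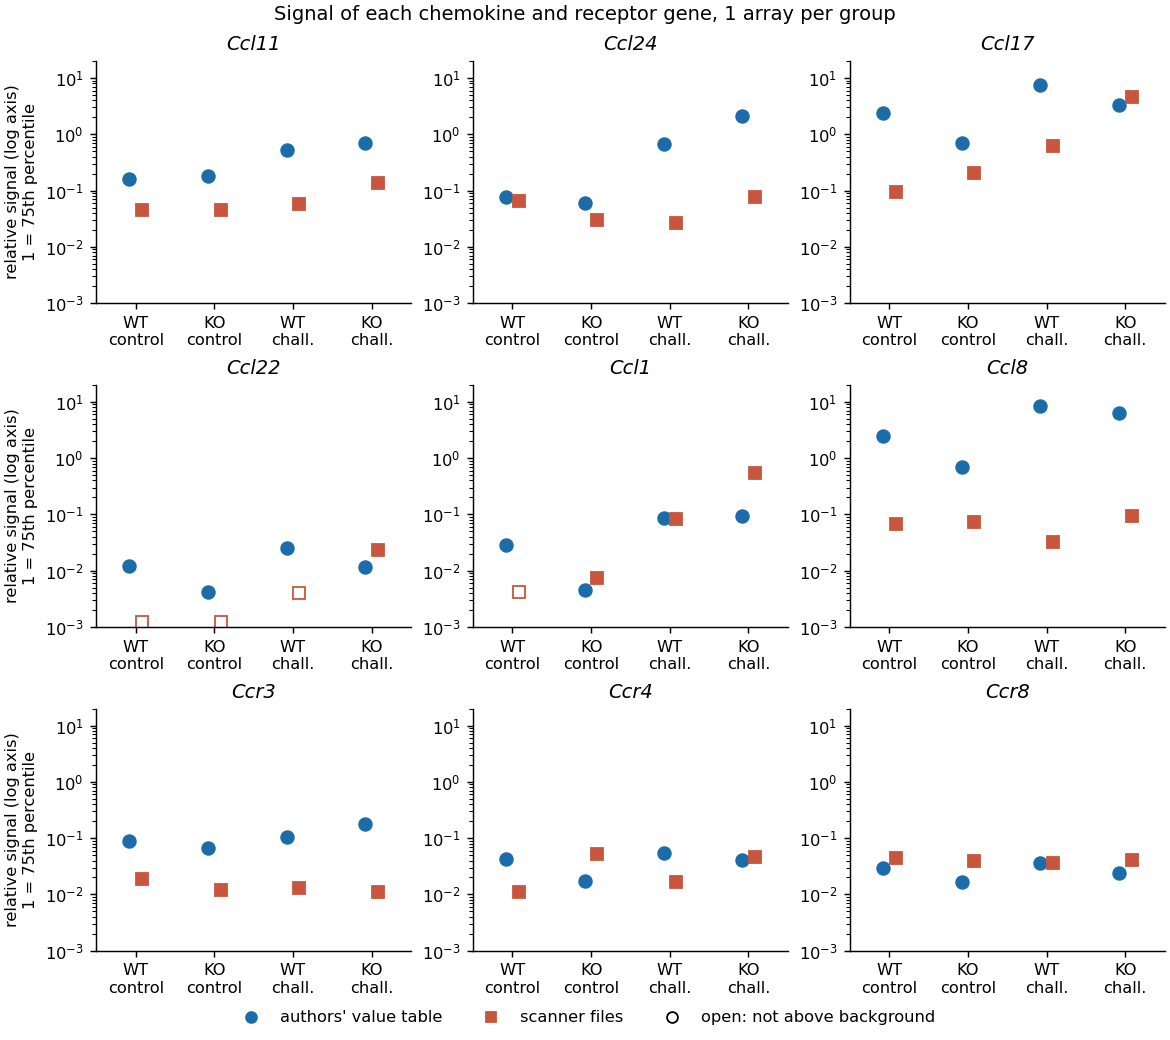
Relative signal of each member on each array (log axis, 1 = the 75th percentile of the array), circles for the authors' value table and squares for the scanner files, 1 array per group and no error bar since there are no replicates. Ccl24 is high only in the challenged columns of the table, and Ccl1 spans the widest range in the scanner files, from 0.00413 (open symbol, not above background) to 0.547.

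Ccl11 (eotaxin-1) was higher after challenge in both genotypes of the table. Its relative signal there was 0.160 in WT-labelled control, 0.179 in KO-labelled control, 0.531 in WT-labelled challenged and 0.705 in KO-labelled challenged lung. Both challenged columns lay above both control columns, by 3.31-fold (WT-labelled) and 3.94-fold (KO-labelled). Its scanner readings were 0.0444, 0.0450, 0.0588 and 0.139. Only the KO-labelled challenged array stood clear there, 3.09-fold above its control, while the WT-labelled pair differed by 0.40 log2 units with a spot error of 0.21. That error is Agilent's own estimate for the 2 spots compared and covers the reading of the spots, not mice.

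Ccl24 (eotaxin-2, a product of macrophages in allergic lung) had the largest challenge difference of any member in the table. Its relative signal was 0.0769, 0.0596, 0.672 and 2.15, so the challenged columns were 8.75-fold (WT-labelled) and 36-fold (KO-labelled) above their controls. The 2 control columns differed by -0.37 log2 units (KO-labelled minus WT-labelled) and the challenged columns by 1.68. Scanner readings of Ccl24 were 0.0660, 0.0296, 0.0261 and 0.0779, with the WT-labelled control and KO-labelled challenged arrays high and the others low. The challenge difference was -1.34 (WT-labelled) and 1.40 (KO-labelled), with a spot error of 0.21 each, all from intensities of 43.9 to 143 at a negative-control median of 1.90 to 2.62. With normexp background correction these became -0.77 and 0.83, below 2-fold.

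Ccl17, a ligand of Ccr4 made by dendritic cells and airway epithelium, was higher after challenge in both genotypes and both sources. In the table it read 2.35, 0.711, 7.53 and 3.36, 3.21-fold and 4.73-fold higher after challenge for WT-labelled and KO-labelled lung (log2 differences of 1.68 and 2.24). Its scanner readings were 0.0932, 0.206, 0.609 and 4.57, or 6.53-fold and 22.2-fold after challenge. The direction between genotypes was opposite in the 2 sources. The KO-labelled column was lower in the table in control (-1.72) and challenged lung (-1.17), and the KO-labelled array was higher in the scanner files in control (1.14) and challenged lung (2.91). The scanner control difference was 0.94 with normexp correction, below 2-fold.

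Ccl22, the other Ccr4 ligand, was like Ccl17 highest and lowest in the same columns of the table. Its relative signal was 0.0123, 0.00410, 0.0248 and 0.0117, with the WT-labelled challenged column highest, the KO-labelled control lowest, and the WT-labelled control and KO-labelled challenged columns close to each other. Challenge differences were 1.02 (WT-labelled, 2.02-fold) and 1.51 (KO-labelled, 2.85-fold), and genotype differences were -1.58 in control and -1.09 in challenged lung. On the scanner arrays Ccl22 was above background only on the KO-labelled challenged array, at 0.0235, where it was at least 4.63-fold above its control and at least 4.96-fold above the WT-labelled challenged array. These bounds set the other array at the lowest signal above background there. The measured readings of the other arrays were 0.00125, 0.00122 and 0.00408, not above background, and with normexp correction the KO-labelled challenge difference was 0.70.

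Ccl1, a Ccr8 ligand produced by activated T cells and mast cells, had the largest challenge differences in the scanner files. It read 0.00413 (not above background), 0.00744, 0.0826 and 0.547 there, at least 16.0-fold higher after challenge with the WT label and 73.6-fold higher with the KO label. Both challenged arrays stood above both controls. With normexp correction the scanner challenge differences of Ccl1 were 1.79 (WT-labelled) and 3.85 (KO-labelled), below those of Ccl17 (2.36 and 4.27). In the table Ccl1 read 0.0285, 0.00456, 0.0873 and 0.0922, or 3.06-fold and 20.2-fold after challenge. The challenged columns differed by 0.08 log2 units, and the KO-labelled control lay 2.64 below the WT-labelled control, so the larger KO-labelled response there started from a lower control. On the scanner arrays the KO-labelled challenged lung was instead 2.73 above the WT-labelled one.

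Ccl8, in the mouse also a Ccr8 ligand, was higher after challenge in the table only. It read 2.47, 0.699, 8.54 and 6.38 there, 3.46-fold (WT-labelled) and 9.12-fold (KO-labelled) above control. As with Ccl17, the KO-labelled control column was the lowest, 1.82 log2 units below the WT-labelled control. Scanner readings of Ccl8 were 0.0672, 0.0738, 0.0329 and 0.0929, with the WT-labelled challenged array the lowest. The challenge difference was -1.03 for WT-labelled lung (-0.56 with normexp correction) and 0.33 for KO-labelled lung, with spot errors of 0.21.

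In the table the log2 challenge difference of each receptor was below that of every ligand in the same genotype. Ccr3, the eotaxin receptor, read 0.0880, 0.0663, 0.104 and 0.179 in the table, and the KO-labelled challenged column was 2.70-fold above its control while the WT-labelled pair differed by 0.24 log2 units. It read 0.0191, 0.0118, 0.0129 and 0.0112 in the scanner files, with the WT-labelled control highest, and the KO-labelled pair and the challenged pair differed by less than their spot errors (0.35 and 0.34). Whole lung RNA cannot tell a change in the number of cells that carry a receptor from a change in its RNA per cell.

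Ccr4, the receptor of Ccl17 and Ccl22, split by genotype label in the scanner files and not by treatment. It read 0.0112, 0.0532, 0.0166 and 0.0470, with both KO-labelled arrays above both WT-labelled arrays, by 4.76-fold in control and 2.84-fold in challenged lung. In the table it read 0.0430, 0.0170, 0.0537 and 0.0412, with the KO-labelled control the lowest, 2.52-fold below the WT-labelled control, and the other 3 columns within 0.38 log2 units. With normexp correction the scanner difference in challenged lung was 0.71, below 2-fold, and in control lung 1.03.

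Ccr8, the receptor of Ccl1 and Ccl8, differed by less than 2-fold in all 4 comparisons of both sources. The probe at position 1072 read 0.0444, 0.0388, 0.0362 and 0.0414 in the scanner files, where the largest difference (-0.30) came with a spot error of 0.21. In the table it read 0.0292, 0.0165, 0.0362 and 0.0243, lower in the KO-labelled columns by 0.82 log2 units in control and 0.57 in challenged lung. The probe at position 424, printed above, was not above background on any scanner array, and in the table it read 0.00743, 0.00287 (not above background), 0.0103 and 0.00476. Its genotype differences in the table were larger, at least 2.35-fold lower in control and 2.16-fold lower in challenged lung.

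**Figure D2:**
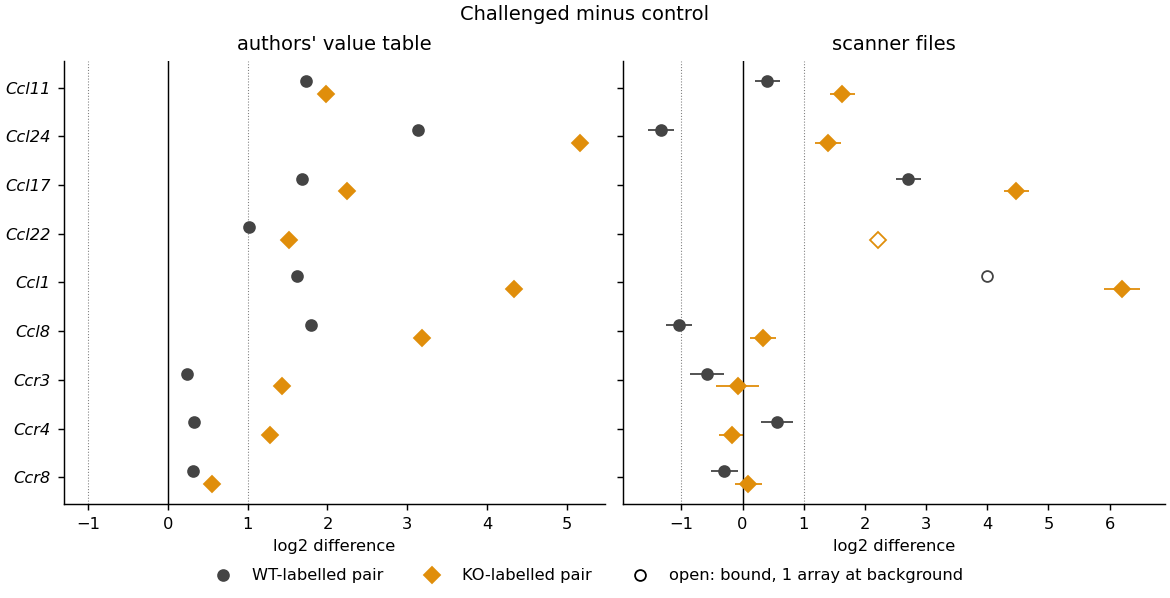
Log2 difference between challenged and control array for each member, circles for the WT-labelled and diamonds for the KO-labelled pair, with the table on the left and the scanner files on the right. Bars are Agilent's spot error, dotted lines mark 2-fold, open symbols are lower bounds, and the WT-labelled Ccl22 pair of the scanner files, at background, is not drawn. All 18 table values lie above 0, while the scanner values of Ccl24 and Ccl8 lie on both sides of 0.

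Counted over the members, 6 of 9 were at least 2-fold higher and 0 lower after challenge in the WT-labelled pair of the table, where 2.36% of all genes above background were higher and 1.1% lower. With the KO label 8 were higher (all but Ccr8) and 0 lower, against 3.27% and 1.36% of genes. All 6 ligands passed 2-fold in both genotypes, as did 0.765% of all genes. The members' median challenge difference was 1.61 (WT-labelled) and 1.98 (KO-labelled). The median over all genes was within 0.1 of 0 in every comparison of both sources.

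On the scanner arrays the WT-labelled pair had 2 members higher (Ccl17 and Ccl1) and 2 lower (Ccl24 and Ccl8) of 8 above background, against 2.43% and 1.95% of genes. The KO-labelled pair had 5 of 9 higher and 0 lower, against 4.54% and 4.14%. The members' median was 0.05 and 1.40. Normexp correction left 2 members past 2-fold for WT-labelled lung (Ccl17 and Ccl1) and 3 for KO-labelled lung.

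The challenge difference was larger in the KO-labelled than in the WT-labelled pair for 9 of 9 members in the table and for 8 of 9 in the scanner files, all but Ccr4, counting Ccl22 and Ccl1 as read although control arrays were at background. The 2 responses of a source share no array, but the counts over genes of one pool are not independent. The share over all genes was not counted. The all-gene median gap between the responses was 0.01 in the table and -0.03 in the scanner files. In the scanner files it was 1.36 over the members, 1.24 over dendritic cell markers and 0.96 over other CC chemokines. It was below 0 there over T cell (-2.20), immature thymocyte (-3.20), mast cell (-0.39) and conducting airway (-0.06) markers. The gap was at least 2-fold for 4 members in the table: 2.72 log2 units for Ccl1, 2.04 for Ccl24, 1.40 for Ccl8 and 1.19 for Ccr3. None had as large a gap the other way, and over all genes 3% did in this direction and 3.03% in the other. The scanner files had 6 as read, among them 2.73 for Ccl24, 1.77 for Ccl17, 1.36 for Ccl8 and 1.22 for Ccl11, and none the other way, against 4.67% and 5.04% of genes. The gap of Ccl1 was at most 2.20 and that of Ccl22 has no bound, since control arrays were at background.

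Averaging the 2 genotypes gives a fit with 1 residual degree of freedom per gene. Its SE and p-values rest on how far the genotypes disagreed in their response, mixed with differences between pools, and not on replicates. The same holds for the averaged genotype effect below. In limma, adjusted over the 26008 table genes, no member passed 0.05 for the challenge effect, nor did any gene: the lowest adjusted p was 0.475, and 2287 genes had an unadjusted p under 0.05. Ccl11, whose table differences were alike in the 2 genotypes, had an averaged effect of 1.85 ± 0.11 (SE) and a limma adjusted p of 0.553 (unadjusted 0.00102). Ccl24 had the largest averaged effect, 4.15 ± 0.65, with a limma adjusted p of 0.566. When limma's prior variance was allowed to follow the mean signal, 118 genes (0.454% of those tested) passed, among them Ccl11 (adjusted p 0.00704) and Ccl17 (0.0172), and Ccl24 (0.0523) and Ccl8 (0.0697) did not. For the scanner arrays the lowest limma adjusted p for challenge was 0.518, tied over many genes with Ccl17, Ccl1 and Ccl22 among them. There 2511 genes had an unadjusted p under 0.05. No scanner member passed with the variance trend, where 1 gene (0.0038%) did.

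**Figure D3:**
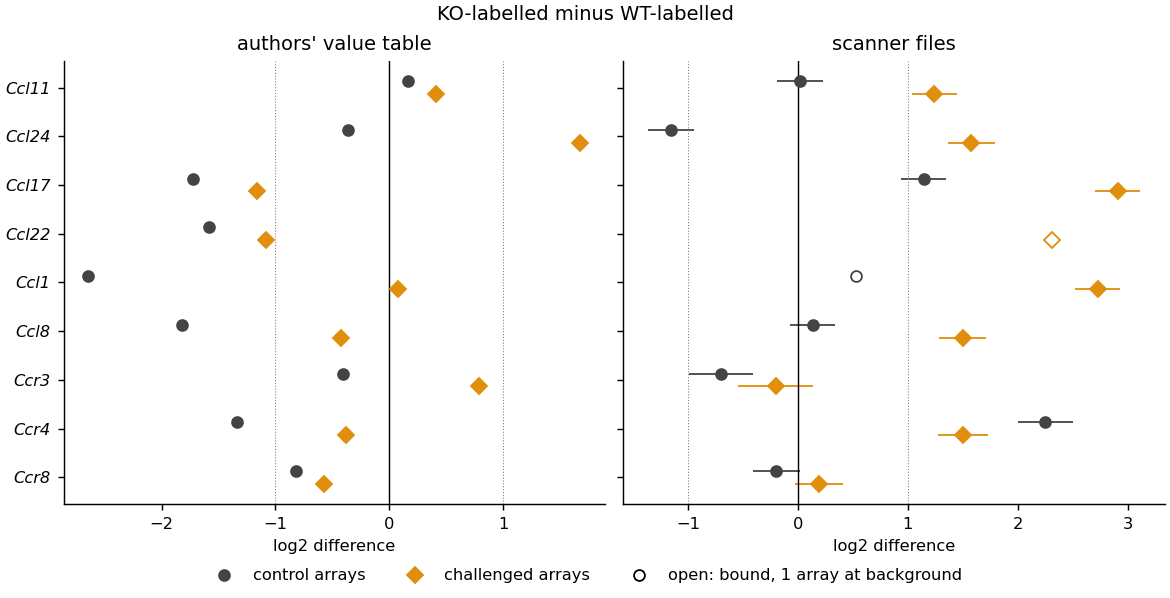
Log2 difference between KO-labelled and WT-labelled array for each member, circles for control and diamonds for challenged lung, with the table on the left and the scanner files on the right. Bars are Agilent's spot error, dotted lines mark 2-fold and open symbols are lower bounds. In control lung the table values of Ccl17, Ccl22, Ccl1, Ccl8 and Ccr4 lie below -1, and in challenged lung 7 scanner values lie above 1.

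Between genotypes, the table had 0 members at least 2-fold higher and 5 lower in the KO-labelled control (Ccl17, Ccl22, Ccl1, Ccl8 and Ccr4), where 1.91% of genes were higher and 3.23% lower. In challenged lung 1 was higher (Ccl24) and 2 lower (Ccl17 and Ccl22), against 2.1% and 3.69%. The scanner files had 2 members higher (Ccl17 and Ccr4) and 1 lower (Ccl24) of 8 in control lung, against 3.57% and 2.4%. In challenged lung 7 of 9 were higher and 0 lower (all but Ccr3 and Ccr8), against 4.22% and 3.92%, and normexp correction left 2 of them past 2-fold, Ccl17 and Ccl1. The sources disagree in sign for Ccl17, Ccl8 and Ccr4 in both treatments, for Ccl1 in control lung and for Ccl22, Ccr3 and Ccr8 in challenged lung (some of these differences are within their spot errors), so no direction by genotype is given for these genes.

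For the genotype effect averaged over treatments, limma gave no adjusted p under 0.05 in either source. The lowest over all genes was 0.108 in the table and 0.429 in the scanner files, and 3587 and 2828 genes had an unadjusted p under 0.05. Ccr4 in the scanner files had an averaged genotype effect of 1.88 ± 0.25 and a limma adjusted p of 0.429. That value was a tie produced by the adjustment, shared with genes whose unadjusted p was lower than that of Ccr4. Ccl17 in the table had -1.44 ± 0.19 and a limma adjusted p of 0.231. With the variance trend 1048 table genes (4.03%) passed, Ccl17 (adjusted p 0.00862) alone among the members.

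Markers of the cells that make or follow these chemokines differed between arrays too. In the table the summed relative signal of 9 T cell markers was 11.3, 7.07, 12.8 and 8.27, and that of 8 dendritic cell markers 12.1, 8.54, 15.9 and 10.4. Both were lower in the KO-labelled column of each treatment, as were Ccl17, Ccl22, Ccl8, Ccr4 and Ccr8. Eosinophil markers summed to 9.04, 7.91, 10.4 and 12.6 over 9 genes, with the KO-labelled challenged column highest, as for Ccl11, Ccl24 and Ccr3. For Ccl1 the challenged columns were nearly equal, 0.08 log2 units apart. The eosinophil granule gene Prg2 read 0.235, 0.0431, 0.232 and 0.273. The part of these cells in the members' differences was not tested.

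Among the scanner arrays the KO-labelled control stood apart, with T cell markers at 5.98, 32.2, 4.68 and 6.34 and 8 immature thymocyte markers at 0.872, 22.7, 0.669 and 1.58. The Ccr4 signal was 0.0532 on that array and 0.0470 on the KO-labelled challenged array. In challenged lung 4 of 9 T cell markers (median log2 difference 1.00) and 6 of 8 thymocyte markers (median 1.23) were also at least 2-fold higher on the KO-labelled than on the WT-labelled array. In the table the thymocyte sums were 2.24 to 2.55, with Rag1 and Rag2 never above background. Scanner eosinophil markers summed to 1.59, 1.69, 1.996 and 2.94, with Epx and Prg3, which encode granule proteins, not above background on any array. Scanner macrophage markers summed to 15.9, 28.0, 75.5 and 104, of which Retnla alone gave 9.91, 14.0, 64.0 and 82.0. For WT-labelled lung the median challenge difference of the list was 0.09, with 2 of 7 at least 2-fold higher and 1 lower. For KO-labelled lung it was 1.04, with 4 of 7 higher and 0 lower. The part of these cells was not tested here either.

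**Figure D4:**
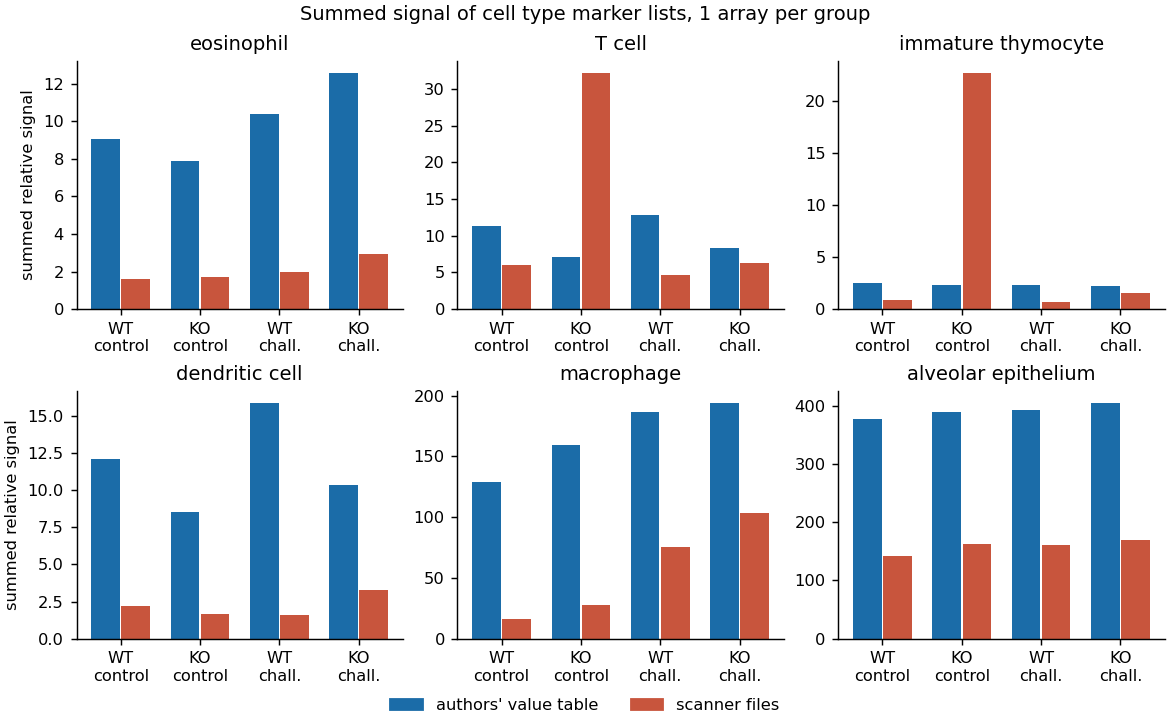
Summed relative signal of 6 marker lists on each array (linear axes from 0, 1 bar per array and source, no error bars since there are no replicates). In the scanner files the KO-labelled control array stands out for T cell (32.2) and immature thymocyte (22.7) markers, and in the table the dendritic cell sums are lower in both KO-labelled columns.

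Genes around the members in the pathway were described from 3 lists. Of 14 other CC chemokines, 13 were on the array and 12 above background (Ccl20 was not). Of these, 1 was at least 2-fold higher after challenge for WT-labelled lung in the table, and for KO-labelled lung 3 were higher and 1 lower. The medians were 0.24 and 0.04. Ccl9, a monocyte attractant, was higher by 1.40 and 1.35, and Ccl7, which also binds Ccr3, by 0.65 and 1.41. Scanner counts were 6 and 8 higher and 0 lower, with medians of 0.73 and 1.75, led by Ccl7 (2.15 and 5.01) and Ccl3, a ligand of Ccr1 (2.44 and 4.09).

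Of 12 other chemokine and scavenging receptors, 0 were 2-fold higher or lower with the WT label and 3 were higher with the KO label in the table, led by Ackr1, a chemokine-binding receptor of venules (0.27 and 1.88). On the scanner arrays 2 of 10 were lower with the WT label, and of 11 with the KO label 1 was higher and 1 lower. The lower one was Ccr9, a receptor of thymocytes and gut-homing T cells (-3.21), on the pair whose control had the high thymocyte markers. A part of thymocyte signal in this difference was not tested.

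The list of 16 inducers holds the type 2 cytokines, their receptors and Stat6, Gata3 and Irf4. Of 13 above background in the table, 1 was 2-fold higher with the WT label and 5 with the KO label, and 0 were lower. Il13 was higher by 1.59 and 2.16, Il1rl1 (the receptor of Il33) by 0.90 and 1.35, Il5 by 0.42 and 1.02 and Il4 by 0.34 and 1.03. Of 13 above background on the scanner arrays 2 were higher with the WT label, and of 15 with the KO label 8 were higher and 1 lower. Il4 was higher by 0.55 and 2.02 there, and the lower gene was Gata3 (-2.32), also a thymocyte gene. As for Ccr9, a part of thymocyte signal was not tested.

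Genes with the pattern nearest to each member were found by the root mean square (RMS) distance of centred log2 values over the 4 arrays, among 16423 table and 16368 scanner genes above background on all of them. Near Ccl11 in the table were Pla2g10, another secreted phospholipase A2 (RMS 0.06), and Chia1, an acidic chitinase (0.13). Near Ccl24 were Muc5ac, the main gel-forming mucin of airway goblet cells (0.45), and Cd209e, a lectin receptor (0.45). Near Ccl17 were the T cell inhibitory receptors Pdcd1 (0.20) and Tigit (0.28), and near Ccl22 Cxcl10 (0.09) and Tigit (0.13). The members were also close to each other, Ccl1 to Ccl8 (0.42) and Ccl8 to Ccl17 (0.37). In the table Retnlg was nearest to Ccr3 (0.06), Apol7c to Ccr4 (0.06) and Il2 to Ccr8 (0.04). By scanner values Il1b was the nearest to Ccl17 (0.20), Phox2a to Ccl11 (0.03) and Htr2b to Ccl24 (0.05). With 4 arrays such closeness is a description.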

How the data were processed

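Groups were taken from the sample titles. Each scanner file holds the intensity of every spot, per the file headers as read by Agilent Feature Extraction 11.5.1.1 (no background subtraction, probe coordinates on mm9), from 1 slide. The value table deposited by the authors holds a linear signal per probe with its 75th percentile near 1.00. Its making is not described in the labels or headers. It was planned as an alternative to the scanner values, but is reported beside them because the correlations above show that it is no rescaled copy. Whether it holds other measurements or the same arrays processed in another way was not tested.

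Scanner intensities were divided by their 75th percentile over the non-control probes. Above background means Agilent's flag in the scanner files, and more than 5 times the negative-control median in the table. Probe names were updated through RefSeq, 28330 by accession and 2378 by symbol, and 8721 kept the file's name. 20 probes flagged as uneven were left out. Where a gene has several probes, the brightest on average stands for it. Called means at least 2-fold and above background on at least 1 array compared. Arrays at background were set to the lowest signal above background, which gives bounds.

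Averaged effects were fitted with limma 3.58.1 (R 4.3.3) with Benjamini-Hochberg adjustment over all genes above background. The step was also run on simulated data. These were drawn with the same response in both genotypes, so they cannot check the spread of the real arrays. The number of arrays, 1 per group, limits the precision. Repeat spots within an array differed little: the SD of a log2 difference over probes with at least 5 spots had a median of 0.03 to 0.05 and a 95th percentile of 0.23 to 0.39. Named genes are the members, Pla2g3, up to 4 genes per list with the largest averaged challenge effect, and the 2 genes nearest in pattern to each member. Members and lists were chosen with earlier results of these data known. Alternatives were other normalizations, detection rules, fold limits, probe rules and limma settings. Other code used Python 3.11.15, pandas 2.3.3, numpy 2.4.6 and matplotlib 3.10.9.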

Additional observations from a re-analysis of the deposited data

Results flagged for a closer look

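Some members went in opposite directions in the groups compared. With 1 array per group, none of these differences was tested. In the scanner files the challenge difference of Ccl24 was -1.34 (WT-labelled) and 1.40 (KO-labelled), a gap of 2.73 log2 units, and that of Ccl8 was -1.03 and 0.33, a gap of 1.36. For Ccl24 the same 4 scanner arrays give a genotype difference (KO-labelled minus WT-labelled) of -1.16 in control and 1.58 in challenged lung, the same gap of 2.73. In the table the genotype difference of Ccl24 was -0.37 in control and 1.68 in challenged lung, a gap of 2.04, so for this gene the order of the genotypes turned with challenge in both sources. The genotype difference of Ccr3 in the table was -0.41 in control and 0.78 in challenged lung, a gap of 1.19.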

How the results depend on the processing

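No member difference called at 2-fold turned direction under any alternative run, which leaves out the WT-labelled challenge difference of Ccl22 in the scanner files, not called because both arrays were at background (1.71 as read, -0.12 with both at the floor). Of 324 member values recomputed, 299 stayed within the error allowed and 25 moved. Normexp background correction, which shrinks differences of dim probes, moved the scanner counts of members past 2-fold. They went from 4 to 2 (WT-labelled challenge), 5 to 3 (KO-labelled challenge) and 3 to 1 (genotype in control). The remaining counts went from 7 to 2 (genotype in challenged lung) and 6 to 3 (gap of responses). After this correction limma called 4 genes for challenge and 3 for genotype where it had called 0. Over all genes normexp correction called 196, 722, 480 and 486 in the 4 comparisons in place of 1130, 2213, 1529 and 2096. Genes higher against lower became 138 to 58, 422 to 300, 375 to 105 and 341 to 145. Without the correction they were 627 to 503, 1158 to 1055, 915 to 614 and 1086 to 1010. Quantile normalization of the scanner values was a separate alternative. It gave 3 members in place of 4 for WT-labelled challenge and left the other counts at 5, 3, 7 and 6. A 1.5-fold limit gave 5 scanner members for genotype in control, and a 3-fold limit 2 (WT-labelled challenge), 1 (genotype in control) and 3 (genotype in challenged lung). In the table a 3-fold limit gave 5 in place of 8 (KO-labelled challenge), 3 in place of 5 (genotype in control), 1 in place of 3 (genotype in challenged lung) and 2 in place of 4 (gap of responses). A variance trend in limma gave 1 scanner gene and 118 table genes for challenge (100 higher, 18 lower) and 1048 table genes for genotype (412 higher, 636 lower), in place of 0 each. Requiring detection on every array compared gave 552, 1328, 957 and 1163 scanner genes, and 409, 603, 769 and 793 table genes in place of 885, 1158, 1308 and 1472. The mean of both Ccr8 probes gave a table genotype difference of -1.10 in control lung. Bounds at the background floor were added after seeing the data. No paired analysis was possible because each group has 1 array, and for the same reason no array could be left out. Signals near background limit Ccl22 and Ccl1 in the scanner files. In the table their KO-labelled control readings, 0.00410 and 0.00456, were also low, at a negative-control median of 0.000632. Table values that use this column, such as the Ccl1 gap of 2.72, carry the same limit.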
